A study of Mus musculus with 24 samples.

Results

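The neurotrophic factor ligands described here are 8 secreted proteins that support neurons and glia, namely brain-derived neurotrophic factor (Bdnf), neurotrophin 3 (Ntf3), glial cell line-derived neurotrophic factor (Gdnf), neurturin (Nrtn), artemin (Artn), ciliary neurotrophic factor (Cntf), leukaemia inhibitory factor (Lif) and cardiotrophin-like cytokine factor 1 (Clcf1). They were chosen by name, as the gene probes that carry these 8 symbols, out of 24813 genes with a symbol on the array. Each gene was read through 1 probe, the one with the highest mean over all arrays, and 7 of the 8 genes were bright enough to be tested. The ligands were measured in RNA from the nerve roots of C57BL/6 mice at birth (P0) and at the ages of 1, 3 and 5 weeks (written 1 W, 3 W and 5 W). Efferent nerve fibres (EN) came from the ventral roots and afferent nerve fibres (AN) from the dorsal roots at segments L4 to L6, with 3 arrays in each of the 8 groups. No group carried a transgene or a treatment. Fibres of several animals of both sexes were collected together in 1 tube per group, and nothing in the labels ties an array to an animal, so the p values below measure the spread between arrays, which may be partly technical.

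Neurotrophic factors fall into families with separate receptors. Neurotrophins bind the Trk receptor tyrosine kinases and the shared receptor p75 (Ngfr). Ligands of the GDNF family bind a GFR alpha co-receptor and signal through the kinase Ret, whereas Cntf, Lif and Clcf1 signal through Lifr and gp130 (Il6st), with Cntfr added for Cntf and Clcf1. Cntf is known as a product of myelinating Schwann cells that lacks a classical signal peptide, and the neurotrophins and Artn are known to act on developing sensory neurons.

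The windows in front of the transcription start of 3 ligands are shown first, because Cntf had the largest rise, Ntf3 the largest fall and Bdnf the largest difference between AN and EN among the ligands. Each line gives the 250 bases upstream of a RefSeq start in GRCm38.p6, on the strand of the gene. Capitals mark a match, on either strand, to TATAAA (the TATA box), to ACAAAG or else ACAATG (letters of Sox family sites), to GCGTGGGCG (letters of an Egr family site), to TGACGTCA (the cAMP response element) or to its variant TCACGTCA. No matches overlapped in these windows.
Cntf, chr19:12765633-12765882, minus strand: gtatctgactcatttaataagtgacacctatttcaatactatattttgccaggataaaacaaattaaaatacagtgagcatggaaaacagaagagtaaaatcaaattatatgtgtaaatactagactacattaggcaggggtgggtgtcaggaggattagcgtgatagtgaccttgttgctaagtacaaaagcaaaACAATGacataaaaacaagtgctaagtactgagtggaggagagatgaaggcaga
Ntf3, upstream start, chr6:126166745-126166994, minus strand: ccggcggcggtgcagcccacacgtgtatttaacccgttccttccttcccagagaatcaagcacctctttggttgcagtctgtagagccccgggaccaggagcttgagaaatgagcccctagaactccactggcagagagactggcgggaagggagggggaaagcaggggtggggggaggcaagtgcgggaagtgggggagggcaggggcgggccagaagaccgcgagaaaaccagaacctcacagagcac
Ntf3, downstream start, chr6:126164961-126165210, minus strand: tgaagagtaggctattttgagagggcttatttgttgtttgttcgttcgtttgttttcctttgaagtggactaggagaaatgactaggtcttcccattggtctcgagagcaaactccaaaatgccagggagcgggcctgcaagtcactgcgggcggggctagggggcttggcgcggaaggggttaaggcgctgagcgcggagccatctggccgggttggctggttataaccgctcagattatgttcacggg
Bdnf, start 3 of 7, chr2:109692186-109692435, plus strand: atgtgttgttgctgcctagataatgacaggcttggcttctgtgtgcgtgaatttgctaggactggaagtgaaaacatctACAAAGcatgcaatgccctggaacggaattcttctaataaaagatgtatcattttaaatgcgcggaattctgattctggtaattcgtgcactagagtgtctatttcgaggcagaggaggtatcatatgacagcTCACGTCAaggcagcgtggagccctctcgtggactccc
The window of Cntf held ACAATG, which 3512 of all 32851 RefSeq windows of this length held. Its GC content was 35.6%, against a median of 52.4% over all windows. Neither window of Ntf3 held any of the motifs. The window of Bdnf shown held ACAAAG, as did 16.5% of all windows, and TCACGTCA, the letters of a variant cAMP response element, found in 0.35% of all windows. The other 6 windows of Bdnf held none. Of the 15 windows available for 7 ligands, only 1 other, in front of an upstream start of Gdnf, held a motif, TATAAA, as did 12.4% of all windows. These matches are letters and not measured binding, and the array probe of each gene does not tell its starts apart.

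Several features of the arrays bear on the values that follow. The values are log2 signals that were quantile normalized, so that every array has the same distribution and the same highest value, 19.02. A probe counted as measured where the scanner software marked it well above background, and the lowest such signal lay between 3.71 and 5.87 on the log2 scale, depending on the array. Markers of sensory neurons were present in EN at P0, where the mean log2 signal of 10 markers was 10.79 to 11.38, compared with 10.72 to 12.32 in AN. At later stages the mean was 6.89 to 8.53 in EN, 11.81 to 12.15 in AN at 1 W and 6.82 to 10.34 in AN at 5 W. Of 8 markers of immature or non-myelinating Schwann cells, 3, 5 and 6 were higher in AN at 1 W, 3 W and 5 W. None was lower, and 2.79%, 3.11% and 3.31% of all probes were called at these stages by the rule given below. Of 4 astrocyte markers, 2 were higher in AN at 1 W, none at 3 W and 3 at 5 W. Of 5 oligodendrocyte markers, 2 were higher at 1 W, none at 3 W and 2 at 5 W. No marker of either list was lower. The part of these lists in the ligand results was not tested. Of 6 motor neuron markers, 3 to 5 were above background per array and Mnx1 was on none. Their mean was 5.62 to 7.23 on the EN arrays and 5.55 to 7.44 on the AN arrays. This mean hides opposite differences, as 1 of the 5 tested was higher and 1 was lower in AN at 1 W. The log2 difference of AN from EN was -3.68, -3.68 and -5.2 for Uts2 at 1 W, 3 W and 5 W. For Isl2 it was 5.06 at 1 W. The mean of the skeletal muscle markers ran from 8.41 to 14.82 between arrays. The third AN array at 3 W stood apart. Its sensory marker mean was 13.32, compared with 9.06 and 8.68 on the other 2 arrays of its group, and its array weight in limma was the lowest, at 0.216. Calls of the genes named below that changed without it are given beside them.

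**Figure D1:**
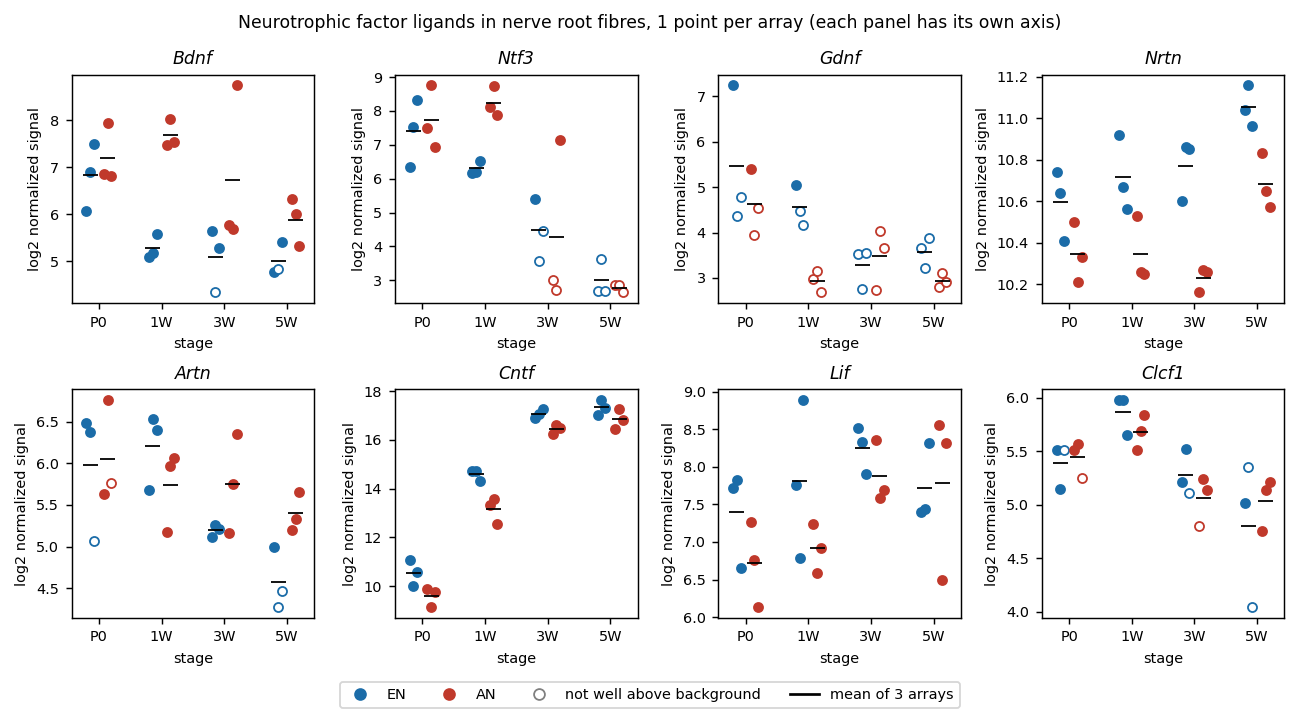
Log2 normalized signal of each of the 8 ligands (vertical axis, 1 scale per panel) by stage, with 1 point per array for EN (blue) and AN (red). Open points were not well above background and short lines are means of 3 arrays. Cntf climbs from 9.13 to 11.08 at P0 to at least 16.23 at 3 W, Ntf3 is at 3.64 or lower at 5 W, and the third AN array at 3 W carries the highest Bdnf value.

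Between AN and EN, 2 of the 7 tested ligands passed an adjusted p of 0.05 with a fold change above 2 at 1 or more stages, and both did so at 1 W. Bdnf was higher in AN and Cntf was higher in EN. The 2 of 7 at 1 W stand beside 2.79% of all 36409 tested probes called in that comparison. No ligand was called at P0, 3 W or 5 W, where 0.327%, 3.11% and 3.31% of all probes were called.

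Against P0 in EN, 4 of 7 ligands were called at 1 or more later stages, with 1 at 1 W (11.9% of all probes called), 3 at 3 W (30.5%) and 4 at 5 W (29.9%). Cntf rose, whereas Bdnf, Ntf3 and Artn fell. In AN, 2 of 7 were called, with 1 at 1 W (8.58%), 2 at 3 W (27.8%) and 2 at 5 W (27.8%), namely Cntf, which rose, and Ntf3, which fell. The comparisons of the later stages share the P0 arrays. The median log2 difference of the 7 ligands was 0.23, -0.11 and -0.58 at the 3 later stages in EN and 0.24, -0.30 and -0.41 in AN, and over all tested probes it lay between 0.015 and 0.064. The change of the AN-EN difference since P0 was called for no ligand at 1 W, 3 W or 5 W in limma, where 0.0632%, 0.525% and 0.931% of all probes were called. These shares depend on the model. At 1 W, 23 probes were called, but 564 without the third AN array at 3 W. With the AN and EN arrays of the same number as a random block, 768 were called. No ligand was called in either setting. With an unadjusted p below 0.05 and the same fold limit, 1 ligand, Bdnf, passed at 1 W.

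**Figure D2:**
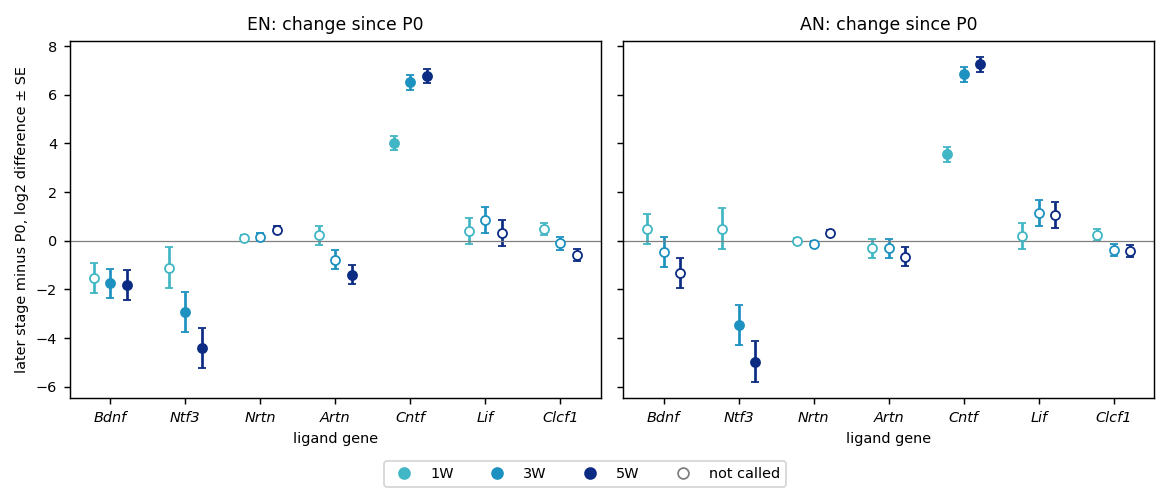
Log2 difference between a later stage and P0 (vertical axis) for the 7 tested ligands in EN (left) and AN (right). Points are limma differences with their standard errors, and filled points passed an adjusted p of 0.05 and a fold change above 2. Cntf lies between 3.55 and 7.25 at all 3 later stages in both roots, and Ntf3 lies at -2.92 and below at 3 W and 5 W.

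Bdnf, a neurotrophin that binds Ntrk2 and Ngfr, was read by a probe at chr2:109566961-109567020 (mm9). In EN, its log2 signals on the 3 arrays were 6.07, 6.90 and 7.50 at P0, 5.09, 5.18 and 5.58 at 1 W, 5.63, 4.33 and 5.28 at 3 W, and 4.76, 4.83 and 5.40 at 5 W. In AN, they were 6.85, 7.94 and 6.80 at P0, 7.47, 8.02 and 7.54 at 1 W, 5.76, 5.68 and 8.75 at 3 W, and 6.33, 6.00 and 5.32 at 5 W. The roots overlapped at P0 and separated completely at 1 W, when the EN arrays were below all P0 arrays of EN and the AN arrays were not. The second EN array at 3 W and the second at 5 W were not well above background.

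At 1 W, Bdnf was higher in AN than in EN by 2.39 ± 0.61 (log2 difference and SE, n = 3 arrays per group), a 5.26-fold difference with an adjusted p of 0.0299 in limma. The AN array exceeded the EN array of the same number in 3 of 3 pairs, by 2.38, 2.84 and 1.96. The call was lost, although the difference stayed between 2.22 and 2.50, when any 1 of the AN arrays or either of the first 2 EN arrays at 1 W was left out, with an adjusted p of 0.0767 to 0.124. It was also lost without the filter on dim probes (adjusted p of 0.0523 in limma). With normexp background correction the difference was smaller, at 1.32, and was still called (adjusted p = 0.0495 in limma). Without the third AN array at 3 W, which enters only through the shared spread, the adjusted p was 0.000669.

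At 3 W the difference was 1.65 ± 0.61 (adjusted p = 0.125 in limma) and the pairs differed by 0.13, 1.35 and 3.48. Without the third AN array it was 0.64 ± 0.44, and with the pairs as a random block it was called, with an adjusted p of 0.0177. At P0 and 5 W, the differences were 0.37 ± 0.61 and 0.89 ± 0.61, and in each stage 1 of 3 pairs had the lower value in AN.

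In EN, Bdnf fell between P0 and 3 W by 1.75 on the log2 scale (SE 0.61, 3.35-fold, adjusted p = 0.021 in limma) and between P0 and 5 W by 1.83 (SE 0.61, 3.55-fold, adjusted p = 0.0163). The difference at 1 W was -1.54 ± 0.61 (adjusted p = 0.0674). On the 1 slide that held both stages, the 5 W array of EN was lower than both P0 arrays and was not above background. The 3 W call was lost with slide as a block (-1.82, adjusted p = 0.145), with another background correction (-0.80, adjusted p = 0.0706) and without the second EN array at P0, the third EN array at P0 or the second at 3 W. The 5 W call was lost with that background correction (-0.87, adjusted p = 0.0515) and without the third EN array at P0 (-1.49, adjusted p = 0.079).

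In AN, Bdnf was not called against P0 with all arrays. The differences were 0.48 ± 0.61 at 1 W, -0.46 ± 0.61 at 3 W and -1.31 ± 0.61 at 5 W (adjusted p = 0.08 at 5 W in limma). Without the third AN array at 3 W, they were called at 3 W (-1.47, adjusted p = 0.00953) and at 5 W (-1.31, adjusted p = 0.00931), as was that in EN at 1 W (adjusted p = 0.00637). In the order of the 8 group means, from AN at 1 W (7.68) to EN at 5 W (5.00), every group overlapped its neighbour.

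The sensory neuron markers varied with Bdnf from array to array. The 3 AN arrays at 5 W had sensory marker means of 10.34, 9.20 and 6.82 and Bdnf values of 6.33, 6.00 and 5.32. The AN arrays at 3 W had marker means of 9.06, 8.68 and 13.32 and Bdnf values of 5.76, 5.68 and 8.75. At 1 W, 8 of the 9 tested sensory markers were higher in AN, and the difference in EN between 1 W and P0 was called lower for 7 of 9. The part of these markers in the Bdnf result was not tested, and in such bulk samples fewer cells or axons of a type and less RNA in each cannot be told apart.

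**Figure D3:**
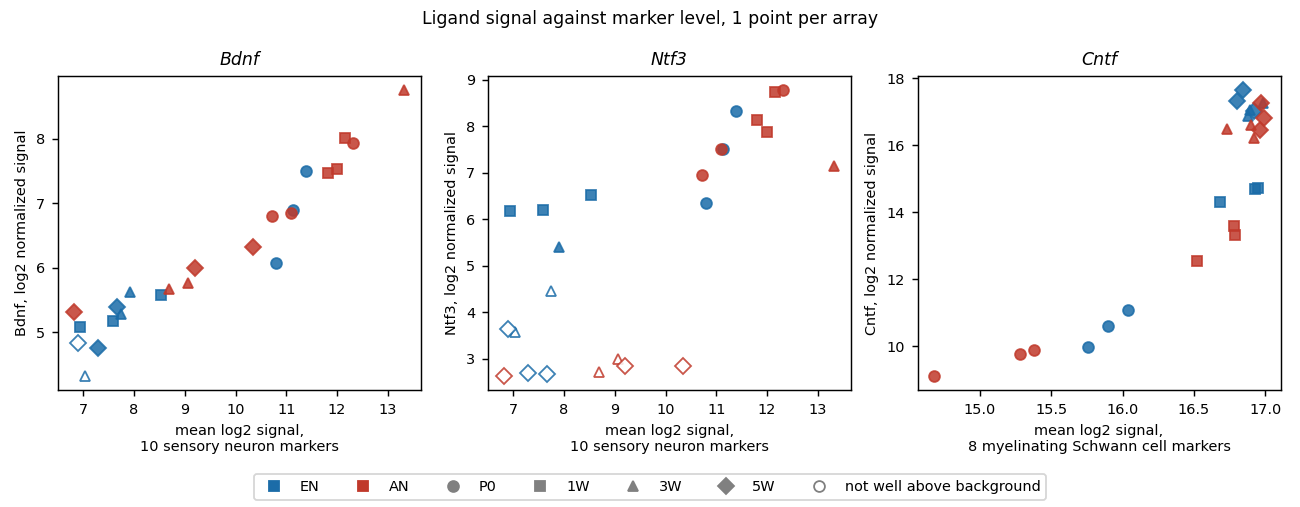
Log2 normalized signal of Bdnf, Ntf3 and Cntf (vertical axes) against the mean log2 signal of 10 sensory neuron markers (left and centre) or 8 myelinating Schwann cell markers (right), 1 point per array, with colours for EN and AN and symbols for stage. Open points were not well above background. On the array with the highest sensory marker mean, 13.32, Bdnf is highest, at 8.75, and Ntf3 is at 7.14. At 5 W, Ntf3 stays near the floor of the array over marker means from 6.82 to 10.34.

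Ntf3, a neurotrophin that binds Ntrk3, was read by a probe at chr6:126051431-126051490 (mm9). Its log2 signals in EN were 6.35, 7.52 and 8.33 at P0, 6.17, 6.21 and 6.53 at 1 W, 5.41, 3.58 and 4.46 at 3 W, and 2.69, 3.64 and 2.67 at 5 W. In AN they were 7.51, 8.77 and 6.95 at P0, 8.13, 8.73 and 7.88 at 1 W, 3.00, 2.72 and 7.14 at 3 W, and 2.85, 2.85 and 2.64 at 5 W. All arrays at P0 and 1 W were well above background, 1 array of each root was at 3 W, and none was at 5 W.

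By 5 W, Ntf3 had fallen at least 5.13-fold in EN and at least 9.49-fold in AN, measured against the lowest signal that counted as above background on the 5 W arrays. The fitted log2 differences, which rest on 5 W values not above background, were -4.4 in EN and -4.96 in AN. Their adjusted p values in limma were 0.000196 and 6.11e-05, and they do not test the bounds. Ntf3 counted as tested only because its P0 and 1 W arrays were above background. As P0 is the high side of each fall, the p values at 3 W and 5 W are not independent of that filter. At 3 W, its log2 difference from P0 was -2.92 in EN (SE 0.83, adjusted p = 0.00623) and -3.46 in AN (SE 0.83, adjusted p = 0.0019), and both were called. The third AN array at 3 W lay within the range of the P0 arrays, and it was the only AN array of that stage above background. Without it, Ntf3 was at least 8.80-fold lower in AN at 3 W than at P0, and the fitted difference had an adjusted p of 1.96e-06 in limma. With normexp background correction the fitted log2 differences at 5 W were -1.65 in EN and -1.77 in AN, and both were still called. They are smaller in size than the bounds given for 5 W, which are 2.36 and 3.25 on the log2 scale.

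The 3 W arrays shared no slide with the P0 arrays, and with slide as a block neither 3 W difference passed the test (-2.67, adjusted p = 0.123 in EN and -3.21, adjusted p = 0.0691 in AN). The AN difference at 3 W was also lost when the AN groups at P0 and 3 W were fitted alone (adjusted p = 0.0546). At 1 W neither root was called against P0 (-1.10 ± 0.83 in EN and 0.50 ± 0.83 in AN).

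At 1 W the 3 AN arrays of Ntf3 were all above the 3 EN arrays, by 1.96, 2.52 and 1.35 within pairs. The difference of 1.95 ± 0.83 was not called (adjusted p = 0.277 in limma). Without the third AN array at 3 W it was 1.95 ± 0.51 and was called (adjusted p = 0.0249), and with the pairs as a random block it had an adjusted p of 0.0599. The AN-EN difference at 3 W was -0.20 ± 0.83, with 1 array of each root above background. Its sign turned when the first AN array (0.45), the second AN array (0.58) or the first EN array (0.27) at 3 W was left out. At P0 the pairs differed by 1.16, 1.25 and -1.38. The sensory markers that moved with Bdnf were also higher in AN than in EN at 1 W. On the third AN array at 3 W, with a marker mean of 13.32, Ntf3 was 7.14. On the first AN array at 5 W, with a marker mean of 10.34, Ntf3 was 2.85. Over the 24 arrays, Pearson's r between Ntf3 and the mean of these markers was 0.732. Their part in the Ntf3 result was not tested.

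Of the neurotrophin receptors, Ntrk3 fell by 5 W in both roots, by 1.48 in EN (adjusted p = 0.000143 in limma) and 1.03 in AN (adjusted p = 0.00369). Its difference at 3 W, 1.22 ± 0.27 higher in AN, fell below 2-fold without the third AN array (0.73 ± 0.16). Ntrk2 was higher in AN at 1 W by 0.53 ± 0.10 and at 5 W by 0.64 ± 0.10 (adjusted p = 0.00568 and 0.000587), less than 2-fold. Ngfr, a gene of immature Schwann cells and sensory neurons, fell between P0 and 5 W in AN by 1.43 (adjusted p = 0.0179). In EN the difference was -1.13 (adjusted p = 0.0531), and it was called without the third AN array at 3 W (adjusted p = 0.0347).

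Among the GDNF family, Nrtn passed the fold limit in no comparison. It was read by a probe at chr17:56890748-56890807 (mm9) that was above background on all 24 arrays. In EN its log2 signals were 10.74, 10.64 and 10.41 at P0, 10.92, 10.67 and 10.56 at 1 W, 10.60, 10.86 and 10.85 at 3 W, and 11.04, 11.16 and 10.96 at 5 W. In AN they were 10.50, 10.21 and 10.33 at P0, 10.53, 10.26 and 10.25 at 1 W, 10.16, 10.27 and 10.26 at 3 W, and 10.83, 10.65 and 10.57 at 5 W. In all 12 pairs the AN array was lower than the EN array of the same number, by 0.08 to 0.59.

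The difference between the roots in Nrtn was -0.54 ± 0.13 at 3 W (adjusted p = 0.0179 in limma), which is 1.45-fold and under the fold limit. At P0, 1 W and 5 W it was -0.25, -0.37 and -0.37 (each SE 0.13), with adjusted p of 0.768, 0.149 and 0.0964. At 5 W, Nrtn differed from P0 by 0.46 in EN (1.37-fold, adjusted p = 0.0062) and by 0.33 in AN (1.26-fold, adjusted p = 0.0393). A second probe of the gene, which covers 4765 bases of the genome from end to end, also had a lower mean in AN at every stage, by 0.44 to 0.79, but none of its differences was called.

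Artn, the ligand of Gfra3, was read by a probe at chr4:117598825-117598884 (mm9) and was above background on 20 of 24 arrays. Its log2 signals in EN were 6.48, 6.38 and 5.07 at P0, 5.68, 6.53 and 6.40 at 1 W, 5.12, 5.26 and 5.21 at 3 W, and 5.00, 4.27 and 4.47 at 5 W. In AN they were 5.63, 6.76 and 5.76 at P0, 5.18, 5.97 and 6.06 at 1 W, 5.16, 5.75 and 6.35 at 3 W, and 5.20, 5.33 and 5.66 at 5 W. The EN arrays at 5 W were the lowest group, and only the first of them was above background.

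Artn fell in EN between P0 and 5 W by 1.40 on the log2 scale (SE 0.39, 2.63-fold, adjusted p = 0.00531 in limma). With another background correction the difference was -0.54 and under 2-fold. Within the slide that held both stages the 5 W array was the lowest, but it and 1 of the 2 P0 arrays were not above background. In AN the difference at 5 W was -0.65 ± 0.39 (adjusted p = 0.171), and the test of the difference between the roots gave 0.74 ± 0.55 (adjusted p = 0.732), so the fall was not shown to differ between EN and AN. Without the third EN array at P0, which was below background, the difference in EN at 3 W was also called (-1.23, adjusted p = 0.0124). At 5 W, AN was higher than EN in 3 of 3 pairs, by 0.19, 1.06 and 1.19, with an adjusted p of 0.241.

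Gdnf was close to background. Its brighter probe, at chr15:7787474-7787533 (mm9), was above background on 3 of 24 arrays, namely the first EN array at P0 (7.25), the first AN array at P0 (5.40) and the first EN array at 1 W (5.04). These 3 arrays were on 1 slide, and the other 2 EN arrays at P0 read 4.36 and 4.78. A second probe was above background on no array. The gene was therefore not tested and no fold is given.

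The receptors of this family were all tested. Gfra1, the main co-receptor of Gdnf, rose in both roots at all 3 later stages, by 1.94, 2.66 and 2.13 in EN and 1.58, 2.81 and 2.87 in AN (each SE 0.28, highest adjusted p = 0.000606 in limma). Gfra3, the co-receptor of Artn, fell at all 3 stages in both roots, with log2 differences of -2.92, -3.52 and -3.44 in EN and -1.60, -2.66 and -3.04 in AN (each SE 0.42). Its excess in AN over EN was 2.47 at 1 W (adjusted p = 0.0038), 2.01 at 3 W (0.00786) and 1.55 at 5 W (0.0313). When the third AN array at 3 W was left out, the excess was 1.31 at 3 W (adjusted p = 0.0203), and that of 1.14 at P0 was also called (adjusted p = 0.049). The AN difference between P0 and 3 W was then -3.36.

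Gfra2, the co-receptor of Nrtn, was higher in AN by 1.01, 1.38 and 1.19 at the same stages (each SE 0.17, highest adjusted p = 0.0032). Nrtn itself had a lower mean in AN at all 4 stages. Ret stood 3.55 ± 0.71 higher in AN than in EN at 1 W (adjusted p = 0.00776). It fell in EN by 2.61 at 1 W (adjusted p = 0.0108). In AN it fell by 2.52 at 5 W (adjusted p = 0.0064), and also at 3 W without the third array (-2.63, adjusted p = 8.45e-05). The change of the AN-EN difference of Ret between P0 and 1 W was 3.12, with an adjusted p of 0.334 with all arrays and 0.00881 without that array. Gfra4, the co-receptor of persephin, was called in no comparison. Ret and Gfra3 were lower in EN at the stages when the sensory neuron markers were lower, and the part of those markers was not tested.

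**Figure D4:**
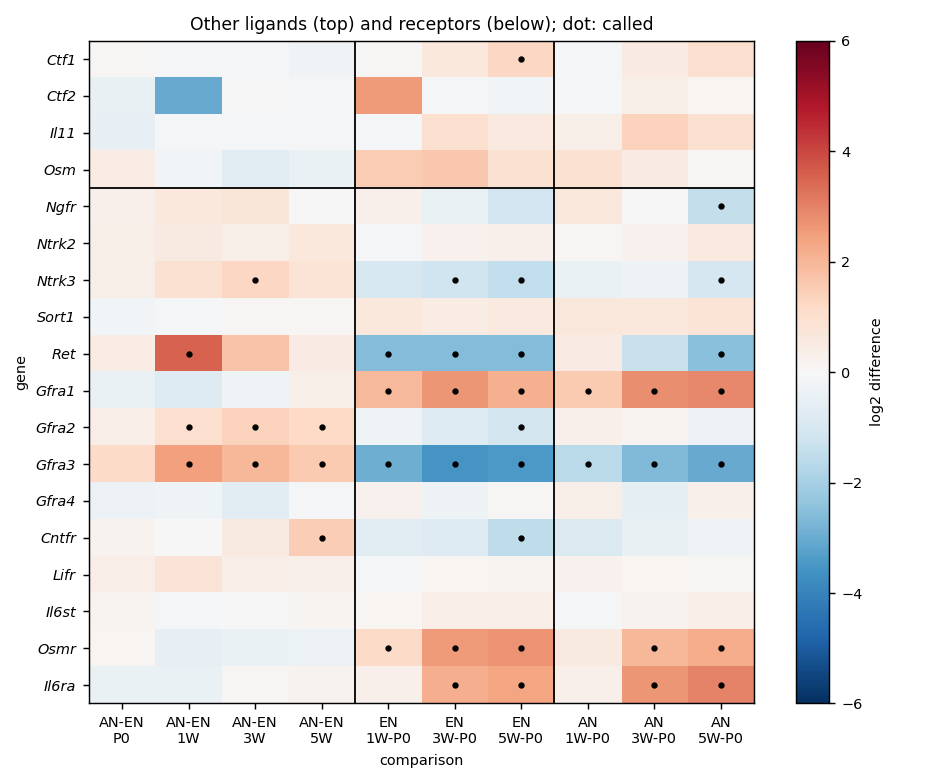
Log2 differences (colour) of 4 tested ligands of the same families (top) and 14 receptors (below) in the 10 comparisons between AN and EN at 1 stage or between a later stage and P0 in 1 root (columns). Dots mark an adjusted p below 0.05 with a fold change above 2. Gfra3 reaches -3.52 in EN at 3 W, and Gfra1, Osmr and Il6ra rise in both roots.

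Cntf had the largest change of any ligand. Its probe, at chr19:12838236-12838295 (mm9), was above background on all 24 arrays. In EN its log2 signals were 11.08, 9.99 and 10.60 at P0, 14.71, 14.73 and 14.31 at 1 W, 16.88, 17.05 and 17.27 at 3 W, and 17.02, 17.64 and 17.32 at 5 W. In AN they were 9.90, 9.13 and 9.78 at P0, 13.34, 13.59 and 12.54 at 1 W, 16.23, 16.61 and 16.49 at 3 W, and 16.46, 17.28 and 16.83 at 5 W. P0, 1 W and 3 W did not overlap in either root, whereas 3 W and 5 W overlapped in both.

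In EN, Cntf rose from P0 by 4.02 at 1 W, 6.51 at 3 W and 6.77 at 5 W (each SE 0.30), which is 16.3-fold, 91.2-fold and 109-fold. In AN it rose by 3.55, 6.84 and 7.25 (each SE 0.30), which is 11.7-fold, 115-fold and 153-fold. The highest of the 6 adjusted p values in limma was 1.73e-07. The 6 calls held under every alternative tried, over which the differences ranged from 3.32 to 7.45. Within slides the rise at 1 W was 3.63 and 4.01 in EN and 3.45 and 3.08 in AN, and at 5 W 7.34 in EN and 7.82 in AN.

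At 1 W, Cntf was lower in AN than in EN by 1.43 ± 0.30 on the log2 scale, 2.69-fold, with an adjusted p of 0.00977 in limma. The AN array was lower in 12 of 12 pairs over the 4 stages, by 1.18, 0.86 and 0.83 at P0, 1.37, 1.14 and 1.77 at 1 W, 0.65, 0.44 and 0.78 at 3 W, and 0.56, 0.36 and 0.50 at 5 W. The groups did not overlap at P0, 1 W and 3 W, but the differences of -0.96, -0.62 and -0.47 at P0, 3 W and 5 W were not called (adjusted p = 0.22, 0.263 and 0.401). With the pairs as a fixed block, their adjusted p in limma was 0.00389, 0.0079 and 0.0225, and they missed the call only through the 2-fold limit. The 1 W call was lost without the third AN array (-1.12, adjusted p = 0.0693) or the first EN array (-1.36, adjusted p = 0.0581). The change of the difference since P0 was -0.47 ± 0.42 at 1 W and 0.49 ± 0.42 at 5 W, and neither passed the test.

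**Figure D5:**
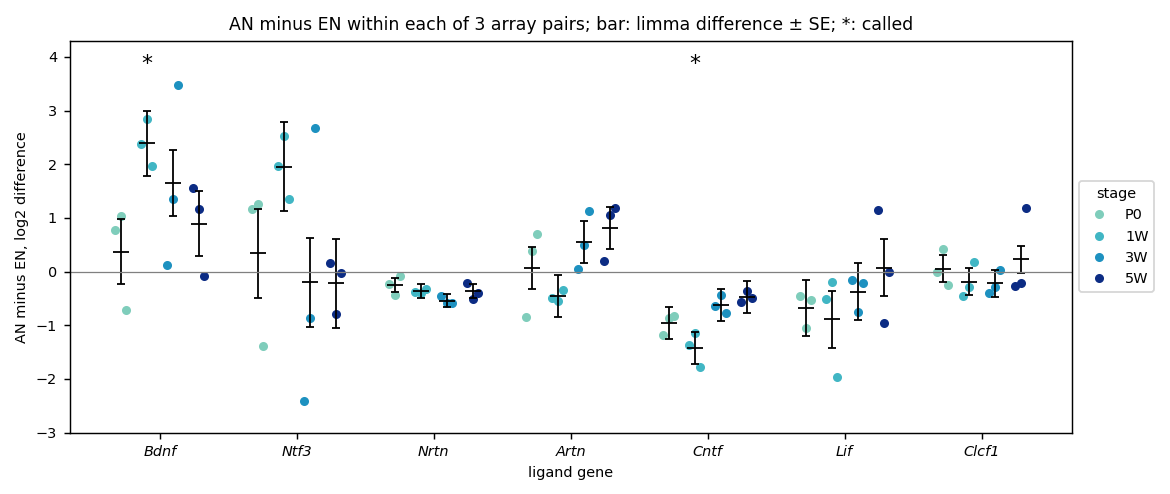
AN minus EN log2 difference (vertical axis) of the 7 tested ligands at each stage, with 1 point for each of 3 array pairs of the same replicate number. Horizontal marks with whiskers are the limma difference and its standard error, and asterisks mark an adjusted p below 0.05 with a fold change above 2. Bdnf at 1 W lies between 1.96 and 2.84, and all 12 pairs of Cntf and of Nrtn lie below 0.

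The mean of the markers of myelinating Schwann cells was also higher after P0 than at P0. The mean log2 signal of the 8 markers was 15.76 to 16.04 in EN and 14.68 to 15.38 in AN at P0, and 16.52 to 16.99 at the later stages in both roots. Of the 8 markers, 3 rose in EN and 4 in AN at 1 W (11.9% and 8.58% of all probes called). In EN the group mean of the markers was 16.85 at 1 W and 16.92 at 3 W, and that of Cntf was 14.58 and 17.07. In AN the markers had means of 16.69 and 16.85 at these stages, and Cntf had 13.15 and 16.45. Of these markers, Pmp22 and Ncmap had means of 18.52 and 18.04 in EN at 3 W, near the highest value of an array. The group mean of the markers was 15.9 in EN and 15.11 in AN at P0, and 16.85 and 16.98 at 5 W. Cntf was higher in EN in all pairs at both stages. Over the 24 arrays, Pearson's r of Cntf was 0.891 with the mean of these markers and 0.878 with that of the macrophage markers. Between the roots, none of the 8 myelinating Schwann cell markers was called at 1 W, 3 W or 5 W. At P0, 2 were called lower in AN, Mbp (-1.25) and Ncmap (-1.26), beside 0.327% of all probes called. Macrophage markers also differed from P0, with a mean of 10.30 to 10.62 at P0 and 11.14 to 12.34 later. The part of either list in the Cntf result was not tested.

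The annotation of the Cntf probe also lists a transcript that reads through from the neighbouring gene Zfp91, and the array cannot tell its signal from that of Cntf. Zfp91, read by its own probe, differed from P0 by -0.13 to 0.56 on the log2 scale over the 6 comparisons, all under 2-fold.

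Lif, an injury-associated cytokine of the same receptor group, was above background on all 24 arrays through a probe at chr11:4172032-4172091 (mm9). Its log2 signals in EN were 7.72, 7.82 and 6.66 at P0, 7.76, 6.79 and 8.89 at 1 W, 8.51, 8.33 and 7.91 at 3 W, and 7.40, 7.44 and 8.31 at 5 W. In AN they were 7.27, 6.76 and 6.13 at P0, 7.24, 6.59 and 6.92 at 1 W, 8.35, 7.58 and 7.69 at 3 W, and 8.55, 6.49 and 8.31 at 5 W. The arrays of a group differed by up to 2.11 in EN and 2.06 in AN.

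No comparison of Lif was called with all arrays. The largest, in AN between P0 and 3 W, was 1.15 ± 0.53 with non-overlapping groups (adjusted p = 0.0749 in limma, 95% confidence interval 0.05 to 2.26). It was called without the second AN array at 5 W (adjusted p = 0.0371), with array weights (adjusted p = 0.0223) and with the AN groups at P0 and 3 W fitted alone (adjusted p = 0.0342). Between P0 and 5 W in AN, the difference was 1.06 ± 0.53 (adjusted p = 0.102). It was 1.71 and called without the second AN array at 5 W (adjusted p = 0.00849), and 1.52 and called with array weights (adjusted p = 0.0272). Between roots the difference was -0.68, -0.89, -0.38 and 0.07 at the 4 stages (each SE 0.53).

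Clcf1, a second ligand of Cntfr, was read by a probe at chr19:4222480-4222539 (mm9) and was above background on 18 of 24 arrays. Its log2 signals ran from 4.04 on the third EN array at 5 W to 5.98 on 2 EN arrays at 1 W. Group means lay between 4.80 in EN at 5 W and 5.87 in EN at 1 W, and no comparison was called. The difference nearest the threshold, between P0 and 5 W in EN, was -0.58 ± 0.25 (adjusted p = 0.0523 in limma). The 95% confidence intervals of all its differences between roots or stages lay between -1.10 and 1.00.

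Cntfr fell in EN between P0 and 5 W by 1.51 ± 0.38 (adjusted p = 0.00265 in limma) and was higher in AN at 5 W by 1.46 (adjusted p = 0.0258). The signalling receptors Lifr and Il6st were called in no comparison, and Il6st differed from P0 by 0.41 ± 0.10 at 5 W in each root. The related receptors Osmr and Il6ra rose in both roots at 5 W. Osmr rose by 2.71 in EN and 2.21 in AN, and Il6ra by 2.36 in EN and 2.99 in AN.

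The other genes of the pathways were counted in lists. Of 9 other ligands 6 were tested. None was called between AN and EN. In EN at 5 W, 2 rose and none fell (29.9% of all probes called). Among these was Ctf1, a cytokine of the Lifr group, which rose by 1.25 ± 0.16 (adjusted p = 3.86e-06 in limma). In AN at 5 W, 1 rose (27.8%). At 3 W, 1 rose in EN (30.5%), and 1 rose and 1 fell in AN (27.8%). Of 15 receptors, all tested, 4 were higher and none lower in AN at 1 W (2.79% of all probes called), and 3 were higher at 3 W (3.11%) and at 5 W (3.31%). Between P0 and 5 W, 3 receptors rose and 6 fell in EN (29.9% of all probes called), and 3 rose and 5 fell in AN (27.8%). When the third AN array at 3 W was left out, 1 receptor was higher in AN at P0 and 2 were at 3 W, and 7 fell in EN at 5 W.

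Of 7 genes that process the precursors of the ligands, 6 were tested and 1, the convertase Pcsk6, was called. It rose by 1.74, 3.74 and 4.02 in EN and, at 3 W and 5 W, by 3.12 and 3.52 in AN (each SE 0.22). Of 15 signal transduction genes 14 were tested and none was called between the roots with all arrays. Without the third AN array at 3 W, 1 of them, Dok4, was higher in AN at 1 W by 2.03 (adjusted p = 0.000881 in limma, against 0.0671 with it) and lower in EN at 1 W than at P0 (-1.55, adjusted p = 0.00248). At 5 W, Socs3, a feedback inhibitor of gp130 signalling, rose in EN by 1.26, Ptpn11 rose in AN by 1.07, and Dok4, an adaptor of Ret, fell by 2.44 in EN and 2.53 in AN.

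Genes whose log2 values ran most like those of a ligand were ranked by Pearson's r over the 24 arrays. These arrays form 8 groups that share stage and root, so r is only a description. For Cntf they were Drp2 (0.992), Tmcc3 (0.992) and Prr15 (0.99). For Bdnf they were Acot7 (0.967), Dgkh (0.966) and Trim36 (0.966), and for Ntf3 Tubb2b (0.941), Cycs (0.94) and Ndn (0.938). For Lif the nearest was Rhox4g (0.919), for Clcf1 Atp6v0c (0.892), for Nrtn Sag (0.886) and for Artn Gm15816 (0.826). Among the ligands themselves r was highest between Bdnf and Ntf3 (0.745) and lowest between Ntf3 and Cntf (-0.801).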

How the data were processed

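RNA of the 24 nerve root samples was hybridized with 1 colour to Agilent arrays. The authors deposited the intensity of each spot from Agilent Feature Extraction 10.7.1.1 and a table of log2 values, which they had quantile normalized. The log2 table was used, with the background marks of the scanner files. The authors' methods state pooled collection and 3 independent experiments per group. The median intensity of the spots ran from 45.4 to 191 between arrays and that of the local background from 23 to 46. The number of arrays limits the precision.

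The 36409 gene probes well above background on all 3 arrays of 1 or more groups (64.3%) entered 1 model in limma 3.58.1 (R 4.3.3) with 8 group means, eBayes and 16 residual degrees of freedom. A probe was called at a Benjamini-Hochberg adjusted p below 0.05 over all tested probes and a fold change above 2. All adjusted p values are from this fit unless a setting is named. The methods do not say whether p was adjusted. For a group with no array above background, a bound was taken from the mean over its arrays of the lowest signal well above background or the probe's own signal, whichever was higher. The code was tested on simulated data. Figures used Python 3.11.15.

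The named genes were the ligands through their brightest probe, the 3 genes most correlated with each tested ligand, and fixed lists of ligands, receptors, processing and signalling genes. The ligands and lists were chosen with earlier results of these data known. Probe positions are those of the scanner files (mm9). Promoter windows came from RefSeq tables of GRCm38.p6 for 7 ligands, and Clcf1 was not in them. The AN and EN array of a replicate number shared a slide, and their deviations from the group means correlated at 0.107 to 0.646 in all 12 pairs, so numbers were taken as pairs within a stage. Values of some genes of these lists are not reported here. Alternatives were other scalings, filters, blocks, weights, probes and thresholds, and leaving out each array.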

Additional observations from a re-analysis of the deposited data

How the results depend on the processing

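Of the 15 called differences of single ligands, 8 were lost under no alternative, 7 under 1 or more, and none changed direction. Between AN and EN, 2 ligands were called. The count was 1 without a filter on dim probes and 1 among probes above background on all 24 arrays, a filter that leaves out Bdnf, Ntf3, Artn and Clcf1, and leaving out single arrays gave 0 to 3. Against P0 in EN, 4 ligands were called, 2 with normexp background correction and 1 among probes above background on all 24 arrays, and 3 to 4 without single arrays. Against P0 in AN, 2 were called, 1 among probes above background on all 24 arrays, and 4 with array weights, with the groups compared fitted alone, and at an unadjusted p. Leaving out single arrays gave 2 to 3. For the change of the AN-EN difference since P0, the count was 0, and 1 at an unadjusted p. No single array left out changed it. The cause of these changes was not tested beyond the probes that a filter removes.

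The replicate number as a block over all stages left the counts at 2, 4, 2 and 0. Same-numbered arrays of different stages correlated in their deviations at -0.347 to 0.378, so numbers did not pair stages. The replicate block within a stage, chosen after seeing the data, gave 2 ligands between AN and EN and 0 for its change, and as a random block 2, 4, 2 and 0. Beside the random block for Bdnf at 3 W, it changed no call. Signals near background limit Gdnf, Clcf1, the late values of Ntf3, the late EN values of Bdnf and some values of Artn.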
